A study of Mus musculus with 6 samples.

Results

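Collagens are the main structural proteins of the extracellular matrix, and this account follows all of their genes through the left ventricle of pressure-overloaded mouse hearts. The members were the protein-coding rows of the count table whose symbol reads Col, a number, the letter a and a number. This gave 44 of the 54929 rows, and 33 of the 44 had enough reads to enter the test, among 14807 genes tested in all. The samples were 6 mRNA-seq libraries of left ventricle from wild-type C57BL/6 mice with transverse aortic constriction (TAC), an operation that narrows the aorta and raises the pressure against which the left ventricle pumps. In the control group (anti-IgG, 3 libraries) the mice had TAC and a control antibody, and in the other group (anti-PD-1, 3 libraries) they had TAC and an antibody to PD-1, a receptor that restrains T cells. Both antibodies were given at 10 mg/kg into the peritoneum every 3 days from day 14, and the labels give the time as 5 weeks. No group without TAC was analysed here, so every value compares banded hearts with banded hearts. The labels do not say that the 3 libraries of a group came from separate animals, so the p-values measure the spread between these libraries only.

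Collagen chains assemble in threes into a triple helix, whose strands repeat the motif Gly-X-Y because only glycine fits at the centre of the helix. Fibrillar collagens (types I, III and V in the heart) form the banded fibres of the interstitium and are made mainly by fibroblasts, while collagen IV forms the sheet-like network of the basement membranes around cardiomyocytes and vessels. FACIT collagens sit on the surface of fibrils, short-chain collagens form hexagonal networks, collagen VI forms beaded filaments near cells, and the multiplexins XV and XVIII lie at basement membranes. Pressure overload is known for raising the interstitial collagens of the ventricle.

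The repeat that defines the family can be read in the coding sequences of the 3 genes that passed the test, shown here with Col1a1 for comparison. Each line holds 63 bases (21 codons) from inside the longest glycine repeat of the gene's longest GENCODE M21 transcript, with the glycine codon that opens each Gly-X-Y triplet in capitals. Codons were counted from the start codon: 168 to 188 of Col1a1, 352 to 372 of Col8a1, 2805 to 2825 of Col12a1 and 1107 to 1127 of Col22a1.
Col1a1: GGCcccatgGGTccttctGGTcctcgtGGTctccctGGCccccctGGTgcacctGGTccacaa
Col8a1: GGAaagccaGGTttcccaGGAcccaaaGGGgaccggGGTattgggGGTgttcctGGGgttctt
Col12a1: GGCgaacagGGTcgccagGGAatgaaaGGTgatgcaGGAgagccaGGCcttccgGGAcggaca
Col22a1: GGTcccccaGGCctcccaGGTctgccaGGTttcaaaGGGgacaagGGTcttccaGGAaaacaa
The family differs in how long this repeat runs without a break. The longest unbroken run held 338 triplets in Col1a1 and 344 in Col3a1, which form long straight fibrils. It held 113 triplets in Col22a1, 61 in Col8a1 and 32 in Col12a1, and the coding sequence of Col8a1 held 10 separate runs. In Col4a1 the repeat was split into 23 runs, the longest of 40 triplets.

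The libraries held 18063344 to 21093163 counted reads. Collagen genes took 0.308%, 0.413% and 0.514% of the reads in anti-IgG libraries 1, 2 and 3 (0.411% ± 0.103, SD, n = 3) and 0.556%, 0.290% and 0.743% in anti-PD-1 libraries 1, 2 and 3 (0.530% ± 0.227, SD, n = 3). The groups overlapped, since the lowest of all 6 shares was that of anti-PD-1 library 2 and the highest that of anti-PD-1 library 3. These are bulk tissue libraries, in which fewer cells of a type and less RNA per cell cannot be told apart. Collagen IV and the fibrillar collagens made up most of these reads in both groups. Fibrillar collagens took 0.150% ± 0.0523 of all reads in the anti-IgG group and 0.224% ± 0.10 in the anti-PD-1 group (SD, n = 3 each), and collagen IV 0.178% ± 0.0335 and 0.190% ± 0.0760.

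Of the 33 collagen genes tested, 3 rose with anti-PD-1 and 0 fell: Col8a1, Col12a1 and Col22a1. The test was edgeR's quasi-likelihood test with Benjamini-Hochberg adjustment over all 14807 genes and a threshold of 0.05 on the adjusted p. Over all genes tested, 10.3% were called higher and 10.8% lower, so a share of 3 in 33 was close to the background. The other 30 collagen genes did not pass the threshold, and 5 of the 33 had an unadjusted p under 0.05 (edgeR, in either direction). Over all genes tested, 5457 of 14807 had such a p, a larger share. DESeq2 and limma-voom each called 3 higher and 0 lower as well. The fitted log2 fold change (anti-PD-1 against anti-IgG) was above 0 in 24 of the 33 and below 0 in 9, against 7129 and 7678 of all genes tested. It ran from -1.07 (Col11a2) to 2.18 (Col12a1), with a median of 0.21 against -0.03 over all genes tested. In 4 genes every anti-PD-1 library lay above every anti-IgG library (Col8a1, Col12a1, Col22a1 and Col6a3), and in 3 every one lay below (Col11a2, Col13a1 and Col20a1). Over all genes, the groups stood apart in this way for 20.2% upward and 20.8% downward. Upper quartile scaling in place of TMM lowered most values: the same 3 collagens were called higher, 20 of the 33 values were above 0, and 36.8% in place of 48.9% of the calls over all genes were upward. In the 3 fits with a length trend removed, given below, 18, 14 and 15 of the 33 values were above 0. Without anti-PD-1 library 3, 16 of the 34 collagens then tested were above 0.

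**Figure D1:**
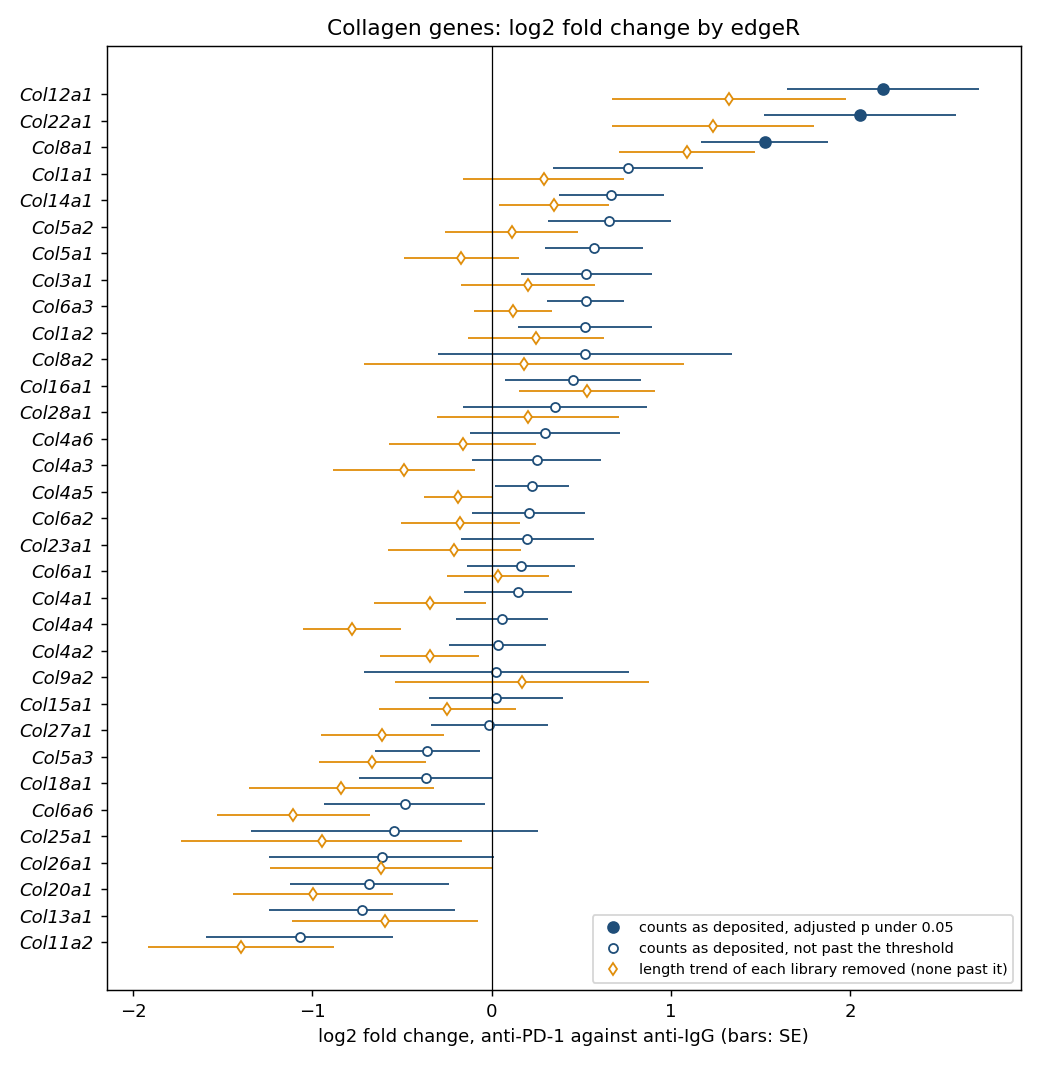
Log2 fold change of each of the 33 tested collagen genes (vertical axis, ordered by size) between 3 anti-PD-1 and 3 anti-IgG libraries, with its SE as a bar. Blue circles are the fit on the counts as deposited, filled for the 3 genes past the threshold, and orange diamonds the fit after a length trend (coding sequence plus 3′ UTR) was taken out of each library, in which none passed and most values lay further left.

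Col8a1 encodes a chain of collagen VIII, a short-chain collagen of vessel walls and other remodelled matrix. Its gene (ENSMUSG00000068196) lies on the minus strand of chromosome 16, from 57624258 to 57754737 (mm10). Its level was 76.2, 94.9 and 118 CPM (reads per megaread, scaled by edgeR's TMM factors) in anti-IgG libraries 1, 2 and 3, and 241, 151 and 439 CPM in anti-PD-1 libraries 1, 2 and 3. The groups did not overlap, and the spread was wide in the anti-PD-1 group (277 ± 147 CPM, against 96.5 ± 21.1 CPM; SD, n = 3 each). The log2 fold change was 1.52 ± 0.35 (SE), with an adjusted p of 0.0183 by edgeR. With a mean of 22.5 FPKM (fragments per kilobase of gene and per depth unit of the library, as deposited) over the 6 libraries, Col8a1 was the eighth most abundant collagen per length, by the authors' lengths and by GENCODE transcript lengths, and by far the most abundant of the 3 that rose.

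Col12a1 encodes a FACIT collagen with a very large non-helical part, which binds to collagen I fibrils. Its gene (ENSMUSG00000032332) lies on the minus strand of chromosome 9, from 79598991 to 79718831. Its level was 4.61, 9.12 and 15.6 CPM in anti-IgG libraries 1, 2 and 3, and 49.6, 19.8 and 63.8 CPM in anti-PD-1 libraries 1, 2 and 3. No library crossed to the other group's range, but the closest pair, anti-IgG library 3 and anti-PD-1 library 2, stood near each other. The log2 fold change was 2.18 ± 0.53 (SE), with an adjusted p of 0.0284 by edgeR. Col22a1 encodes another FACIT collagen, known from the muscle-tendon junction. Its gene (ENSMUSG00000079022) lies on the minus strand of chromosome 15, from 71795795 to 72034227. It was read rarely, with 11, 17 and 36 reads in anti-IgG libraries 1, 2 and 3 (0.56, 0.95 and 1.80 CPM) and 99, 37 and 144 reads in anti-PD-1 libraries 1, 2 and 3 (4.94, 1.98 and 6.92 CPM). The log2 fold change was 2.05 ± 0.53 (SE), with an adjusted p of 0.0239 by edgeR, and the highest control library again lay just below the lowest anti-PD-1 library.

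All 3 calls depended on single libraries. Without anti-IgG library 2 none of the 3 passed (adjusted p by edgeR 0.0961 for Col8a1, 0.115 for Col12a1 and 0.107 for Col22a1). Without anti-PD-1 library 1 none passed either (edgeR, 0.0505, 0.103 and 0.0725 in the same order). Calls over all genes, 1525 higher and 1593 lower with all libraries, fell in these fits too. They were 216 and 316 without anti-IgG library 2 and 496 and 473 without anti-PD-1 library 1. Without anti-PD-1 library 3 Col8a1 alone passed (edgeR, 0.0369), with adjusted p of 0.0633 for Col12a1 and 0.0810 for Col22a1. Without anti-PD-1 library 2, the library with the least collagen, 6 collagen genes were called higher: these 3 with Col14a1, Col5a2 and Col6a3. Over all genes, 1207 were called higher and 1300 lower in that fit. Col8a1, Col12a1 and Col22a1 all kept their calls without anti-IgG library 1 (adjusted p by edgeR 0.0386, 0.0307 and 0.046). They also did without anti-IgG library 3 (edgeR, 0.0456, 0.0311 and 0.0319). Calls over all genes were 1805 higher and 1841 lower in the former fit and 735 and 829 in the latter. Without a filter on low counts Col12a1 did not pass (adjusted p 0.108 by edgeR), and on log2(FPKM + 1) or log2(FPKM + 0.1) Col22a1 did not (limma, 0.0604 and 0.0509). The 3 genes stayed above 0 in each fit with 1 library left out, with log2 fold changes of 1.03 to 1.84 for Col8a1, 1.83 to 2.71 for Col12a1 and 1.64 to 2.62 for Col22a1.

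Because collagen content differed so much between libraries of 1 group, the share of a library's collagen reads was also computed, as a description chosen after the values were seen. Col8a1 took 2.67%, 2.17% and 2.33% of the collagen reads in anti-IgG libraries 1, 2 and 3 and 4.65%, 4.62% and 5.98% in anti-PD-1 libraries 1, 2 and 3. On this scale anti-PD-1 library 2 no longer stood near the controls. The spread within groups was narrower too, at 2.39% ± 0.259 and 5.08% ± 0.777 (SD, n = 3 each). Col12a1 took 0.162%, 0.208% and 0.307% of the collagen reads in the controls and 0.958%, 0.603% and 0.869% with anti-PD-1, and Col22a1 0.0198%, 0.0217% and 0.0356% against 0.0953%, 0.0605% and 0.0943%. For all 3 genes the groups were separate, and anti-PD-1 library 2 had the lowest share of its group. Such separation was not particular to these genes. Among the tested collagens, Col1a1, Col5a1, Col5a2 and Col14a1 were also separate upward, and Col4a1, Col4a2, Col5a3 and Col18a1 downward. The scale covers collagens only, so no share over all genes stands beside it. Col4a1 moved the other way, with 27.5%, 23.2% and 24.3% in the controls and 20.0%, 22.1% and 21.8% with anti-PD-1. Col1a1 took 4.74%, 6.67% and 8.13% in the controls and 9.08%, 8.50% and 9.15% with anti-PD-1, so that its groups, which overlapped in CPM, did not overlap as a share of collagen reads. Col5a1 (1.81% to 1.95% against 2.06% to 2.49%) and Col5a2 (2.20% to 2.42% against 2.48% to 2.95%) were separate as well. Col5a3 was separate downward, while Col3a1 and Col1a2 overlapped on this scale. Col3a1 took 12.9%, 15.6% and 15.8% in the controls and 19.7%, 14.6% and 16.0% with anti-PD-1, and Col1a2 7.01%, 10.8% and 9.24% against 11.3%, 9.88% and 9.97%. By class, short-chain collagens took 2.54% ± 0.250 of the collagen reads in the controls and 5.26% ± 0.807 with anti-PD-1, and FACIT collagens 1.62% ± 0.227 and 2.54% ± 0.250. Fibrillar collagens took 35.9% ± 4.59 and 41.9% ± 3.58, and collagen IV 43.7% ± 4.18 and 36.5% ± 2.61 (SD, n = 3 each). In each of these classes the groups were separate. The multiplexins were separate too, downward, at 6.80% ± 0.602 in the controls and 4.93% ± 0.871 with anti-PD-1. Collagen VII was separate downward as well, on only 27 and 4 reads, and the remaining classes overlapped. For the fibrillar class the margin was small, with 38.6% in the highest control and 38.8% in the lowest anti-PD-1 library. These shares add up to a whole, so a rise of 1 gene lowers the others.

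**Figure D2:**
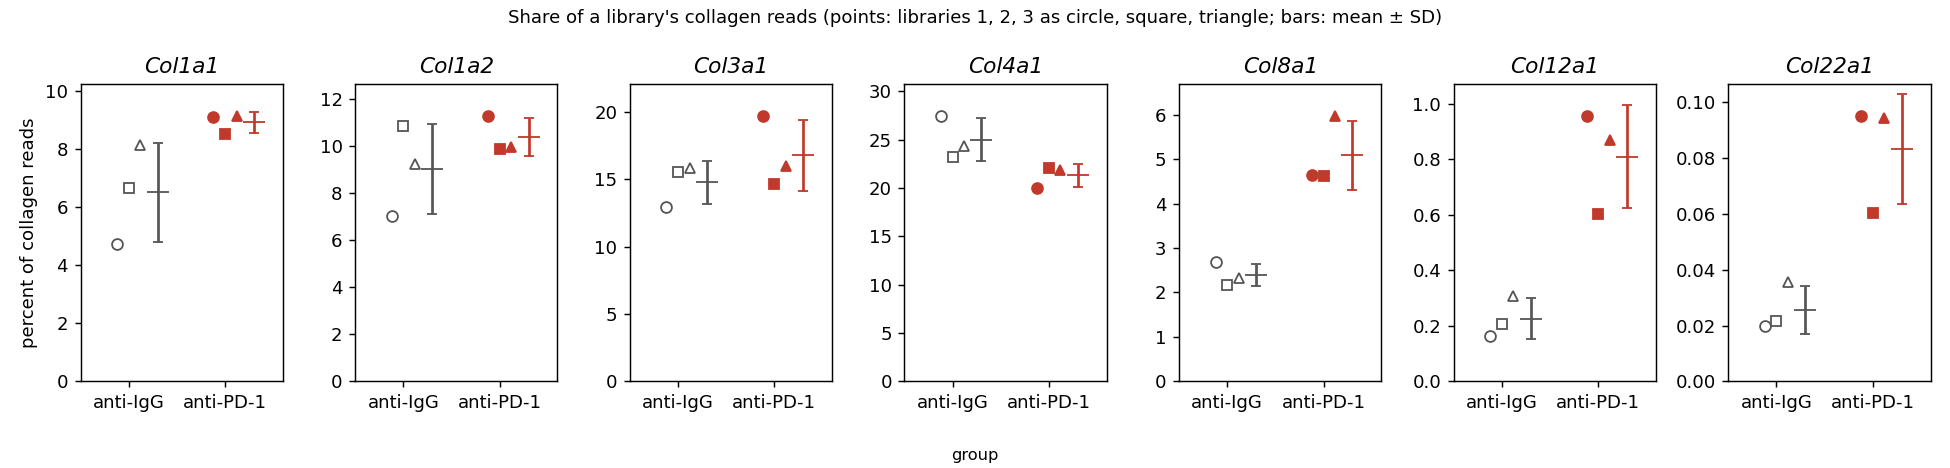
Share of a library's collagen reads (vertical axis, percent, from 0) taken by Col1a1, Col1a2, Col3a1, Col4a1, Col8a1, Col12a1 and Col22a1 in 3 anti-IgG (open grey) and 3 anti-PD-1 (red) libraries, with mean ± SD beside the points. The groups overlap for Col1a2 and Col3a1 and are separate in the other panels, with Col8a1 at 2.17% to 2.67% in the controls and 4.62% to 5.98% with anti-PD-1.

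Long genes tended to have higher fold changes in this comparison, and collagen genes are long. The authors' gene length had a median of 7464 bp in the 33 tested collagen genes (3095 to 15228 bp) and 4163 bp over all genes tested. Across genes, Spearman's correlation of the log2 fold change with gene length was 0.49 over all 14807 genes and 0.25 over the 33 collagens; genes share libraries and are not independent replicates. When each library's trend on gene length was removed, none of the collagen genes passed, and 5.17% of all genes were called higher and 5.13% lower. The adjusted p by edgeR was then 0.0650 for Col8a1 (log2 fold change 1.25), 0.146 for Col12a1 (1.66) and 0.0721 for Col22a1 (1.70). When the trend was fitted on coding and 3′ UTR length, 2.92% of all genes were called higher and 2.70% lower, and with GC content added 3.41% and 3.22%, again with none of the collagens. The log2 fold changes of Col8a1, Col12a1 and Col22a1 were 1.09, 1.32 and 1.23 in the former fit and 1.05, 1.30 and 1.35 in the latter. The median over the 33 collagens fell from 0.21 to 0.03, -0.17 and -0.09 in these 3 fits. What moved with gene length was not tested, and its part in the collagen fold changes was not tested.

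**Figure D3:**
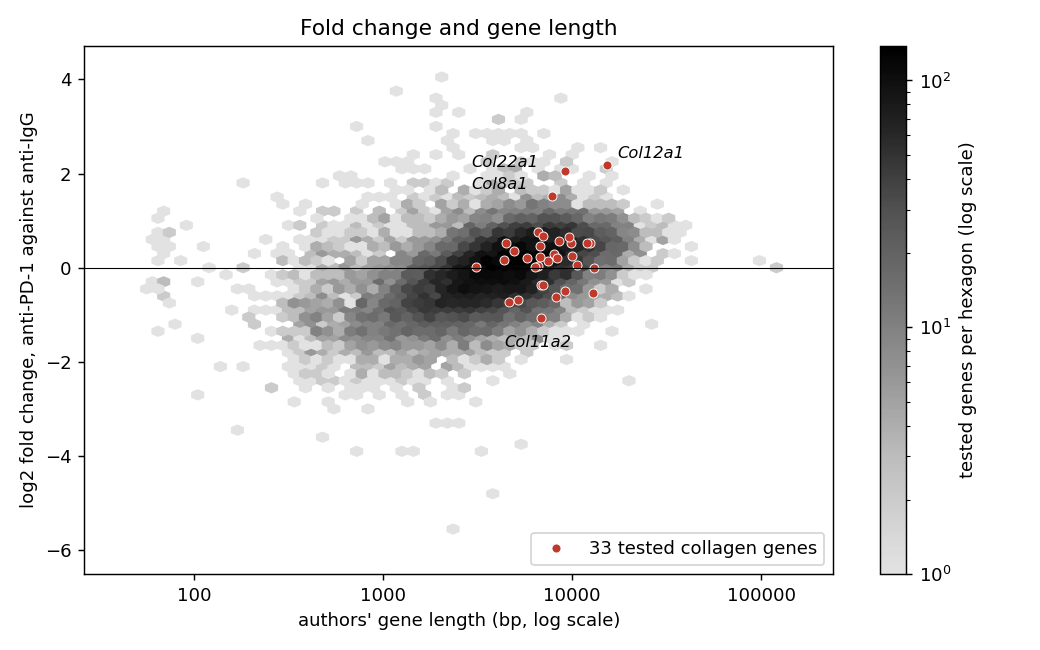
Log2 fold change between anti-PD-1 and anti-IgG libraries (vertical axis) against the authors' gene length (horizontal axis, log scale) for all 14807 tested genes (grey hexagons, shaded by number of genes on a log scale) and the 33 tested collagen genes (red). The grey cloud rises with length, most collagens lie within it at the long end, and Col8a1, Col12a1 and Col22a1 lie above most genes of their length.

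The fibrillar collagens, the bulk of the scar-forming matrix, showed no call among 8 tested members of 11, with a median log2 fold change of 0.52 and 5 values above 0. Col3a1, the chain of collagen III, stood at 368, 682 and 803 CPM in anti-IgG libraries 1, 2 and 3 and at 1022, 479 and 1173 CPM in anti-PD-1 libraries 1, 2 and 3. Col1a1, the chain present in double dose in collagen I, stood at 135, 292 and 412 CPM and at 470, 279 and 672 CPM. Col1a2, its partner chain, stood at 200, 475 and 468 CPM and at 585, 324 and 731 CPM. In all 3 genes anti-PD-1 libraries 1 and 3 lay above every control, and anti-PD-1 library 2 lay among the controls. The log2 fold changes were 0.53 ± 0.37 for Col3a1, 0.76 ± 0.42 for Col1a1 and 0.52 ± 0.37 for Col1a2 (SE), with adjusted p of 0.320, 0.219 and 0.338 by edgeR. Col5a1 and Col5a2, chains of collagen V, which starts collagen I fibrils, had values of 0.57 ± 0.27 and 0.66 ± 0.34 (adjusted p by edgeR 0.157 and 0.192). With the trend on coding and 3′ UTR length removed Col5a1 was at -0.17. Col5a3 had -0.36 ± 0.29 and Col27a1 -0.01 ± 0.33. Col11a2, a chain of the cartilage collagen XI, was read at 0.65 to 1.18 CPM in the controls and 0.34 to 0.59 CPM with anti-PD-1, with a log2 fold change of -1.07 ± 0.52 and an adjusted p of 0.158 by edgeR.

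**Figure D4:**
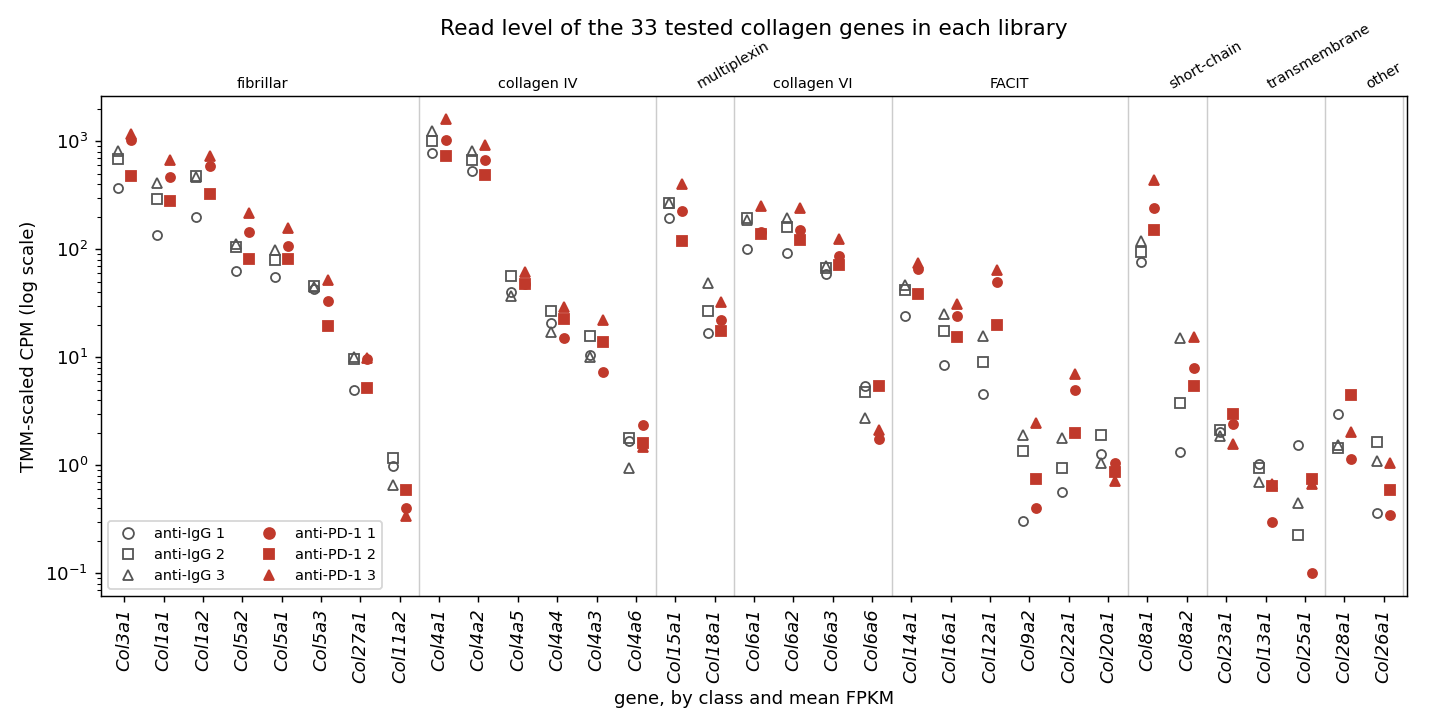
Level of each tested collagen gene (horizontal axis, by class and mean FPKM) in TMM-scaled CPM (vertical axis, log scale) in each of the 3 anti-IgG (open grey) and 3 anti-PD-1 (red) libraries, with a marker shape for each library number. In Col3a1, Col1a1 and Col1a2 the square of anti-PD-1 library 2 lies among the controls and the other red points lie above them.

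Collagen IV, the network former of the basement membrane, held the most abundant collagen transcript of these ventricles, and none of its 6 chains passed the test. The mean over the 6 libraries was 134 FPKM for Col4a1 and 96.9 FPKM for Col4a2, ahead of Col3a1 at 72.4, Col1a1 at 54.1, Col15a1 at 36.4, Col6a1 at 36.3 and Col1a2 at 35.1 FPKM. This order depended on the authors' gene lengths. Per kilobase of the longest GENCODE transcript, Col4a1 still led with 161 CPM, followed by Col3a1 with 136, Col4a2 with 106, Col1a2 with 86.7, Col1a1 with 63.5, Col15a1 with 47.5 and Col6a1 with 41.2. Col4a1 stood at 783, 1015 and 1234 CPM in anti-IgG libraries 1, 2 and 3 and at 1034, 724 and 1600 CPM in anti-PD-1 libraries 1, 2 and 3. Col4a2 stood at 527, 676 and 820 CPM and at 670, 482 and 918 CPM. In both genes the lowest and the highest of the 3 anti-PD-1 libraries fell outside the range of the controls, on either side. The log2 fold changes were 0.15 ± 0.30 and 0.03 ± 0.27 (SE), with adjusted p of 0.758 and 0.943 by edgeR. The other 4 chains, which form the specialised networks of some basement membranes, ran from 0.06 (Col4a4) to 0.30 (Col4a6). All 6 fitted values were above 0 on the counts as deposited, but this direction did not hold across settings. In the 3 fits with a length trend removed, Col4a1 lay at -0.11 to -0.34, Col4a2 at -0.16 to -0.35, Col4a3 at -0.0974 to -0.49 and Col4a4 at -0.31 to -0.78. Col4a5 and Col4a6 were below 0 in the 2 of these fits that used coding and 3′ UTR length. Upper quartile scaling put Col4a2 at -0.0535 and Col4a4 at -0.0383.

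The 6 genes of collagen IV lie in pairs, head to head. Col4a1 (minus strand) and Col4a2 (plus strand) overlap by 22 bases at their starts, chromosome 8 from 11312805 to 11312826 (mm10), so reads within those bases cannot be assigned to either unless strand was used. The site is shown because it is the stretch that both genes share. These 30 bases, chr8:11312801-11312830 on the plus strand (GRCm38.p6), have the overlap in capitals.
Col4a1 and Col4a2: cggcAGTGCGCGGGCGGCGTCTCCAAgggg
Col4a3 and Col4a4 start 71 bp apart and had fitted log2 fold changes of 0.25 and 0.06. Col4a5 and Col4a6 start 1308 bp apart, at 0.22 and 0.30. Another close pair is Col3a1 and Col5a2, tail to tail with 24614 bp between them, at 0.53 and 0.66.

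The multiplexins and collagen VI had no call. Col15a1, a basement membrane collagen of muscle and capillaries, stood at 195, 267 and 268 CPM in anti-IgG libraries 1, 2 and 3 and at 226, 118 and 398 CPM in anti-PD-1 libraries 1, 2 and 3. Its anti-PD-1 libraries spanned more than the whole control range, and the log2 fold change was 0.02 ± 0.37 (SE). Col18a1, the source of the fragment endostatin, stood at 16.7, 26.8 and 48.6 CPM and at 21.9, 17.3 and 32.3 CPM, with a value of -0.36 ± 0.37. Col6a1 stood at 100.04, 194 and 185 CPM in the controls and at 144, 140 and 252 CPM with anti-PD-1, and Col6a2 at 92.2, 160 and 193 CPM and at 150, 120.5 and 243 CPM. Both genes were lowest in anti-IgG library 1 among the controls, and with anti-PD-1 highest in library 3 and lowest in library 2. Anti-IgG libraries 2 and 3 stood in opposite order in these genes. Their log2 fold changes were 0.16 ± 0.30 and 0.21 ± 0.31. Among the 4 tested chains of collagen VI, only Col6a3, the long chain, had separate groups. It stood at 58.5, 67.5 and 70.4 CPM in the controls against 87.3, 71.8 and 123 CPM with anti-PD-1. Its log2 fold change was 0.52 ± 0.21 with an adjusted p of 0.102 by edgeR, and anti-PD-1 library 2 lay just above the control range. Col6a6, a rarer chain, ran from 1.74 to 5.38 CPM over the 6 libraries with overlap, at -0.49 ± 0.45 (SE).

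Among the other FACIT collagens, Col14a1, which binds fibril surfaces, stood at 24.0, 41.8 and 46.6 CPM in anti-IgG libraries 1, 2 and 3 and at 66.0, 38.2 and 74.3 CPM in anti-PD-1 libraries 1, 2 and 3. Its log2 fold change was 0.67 ± 0.29 (SE), with an adjusted p of 0.126 by edgeR, and as with the fibrillar chains only anti-PD-1 library 2 lay within the control range. Col16a1 stood at 8.50, 17.5 and 25.3 CPM and at 24.1, 15.4 and 30.8 CPM (0.46 ± 0.38). The FACIT class as a whole held 6 tested members of 9, of which 2 rose (10.3% of all genes were called higher), and its median was 0.56. Col9a2 had 0.03 ± 0.74 and Col20a1 -0.68 ± 0.44 (SE).

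Col8a2, the partner of Col8a1 in collagen VIII, did not pass, at 1.33, 3.75 and 15.1 CPM in the controls and 8.03, 5.41 and 15.5 CPM with anti-PD-1. Its log2 fold change was 0.52 ± 0.82 (SE), and its control libraries alone spanned nearly the full range. The transmembrane and remaining collagens were all read at a few CPM or less. Col23a1 stood at 2.05, 2.13 and 1.85 CPM and at 2.39, 2.95 and 1.59 CPM, and Col13a1 at 1.02, 0.95 and 0.70 CPM and at 0.30, 0.64 and 0.67 CPM. Col13a1, a transmembrane collagen of the neuromuscular junction, had separate groups and a log2 fold change of -0.72 ± 0.52, which did not pass. Col28a1, known from Schwann cells of peripheral nerve, stood at 2.97, 1.45 and 1.55 CPM and at 1.15, 4.50 and 2.02 CPM, and Col26a1 at 0.36, 1.62 and 1.10 CPM and at 0.35, 0.59 and 1.06 CPM. Col25a1 ran from 0.10 to 1.54 CPM over the 6 libraries with a value of -0.54 ± 0.80.

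The 11 collagen genes too rarely read to be tested each had at most 84 reads in the 3 libraries of a group. Col11a1, a cartilage collagen, had 84 reads in the anti-PD-1 group and 24 in the anti-IgG group, and 72 of the 84 came from anti-PD-1 library 3 alone. Col7a1, the anchoring fibril of skin, and Col6a5 each had 4 reads against 27, and Col9a3 1 against 17. Col24a1 had 14 against 6, Col17a1 8 against 10, Col19a1 6 against 0, Col2a1 5 against 6 and Col10a1 2 against 1. Col6a4 and Col9a1 had 0 reads in all 6 libraries, which allows a level of up to 0.0256 CPM (3 counts in 117076089 reads, counting error only).

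Collagen genes varied more within a group than most genes did. The coefficient of variation between the 3 libraries of a group had a median of 31.7% over the 33 tested collagens in the controls and 38.6% with anti-PD-1, against 19.9% and 18.5% over all genes tested. The collagens moved together in this spread. Among anti-PD-1 libraries, library 3 was the highest for 26 of the 33 genes and library 2 the lowest for 21. Among anti-IgG libraries, library 3 was the highest for 18 and library 1 the lowest for 22. Over all genes no library was the highest or lowest in its group for more than 41.3% of genes. Col1a1, Col3a1, Col4a1, Col6a2 and Col8a1 all stood in the order 3, 2, 1 in the controls and 3, 1, 2 with anti-PD-1, from the highest library to the lowest.

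**Figure D5:**
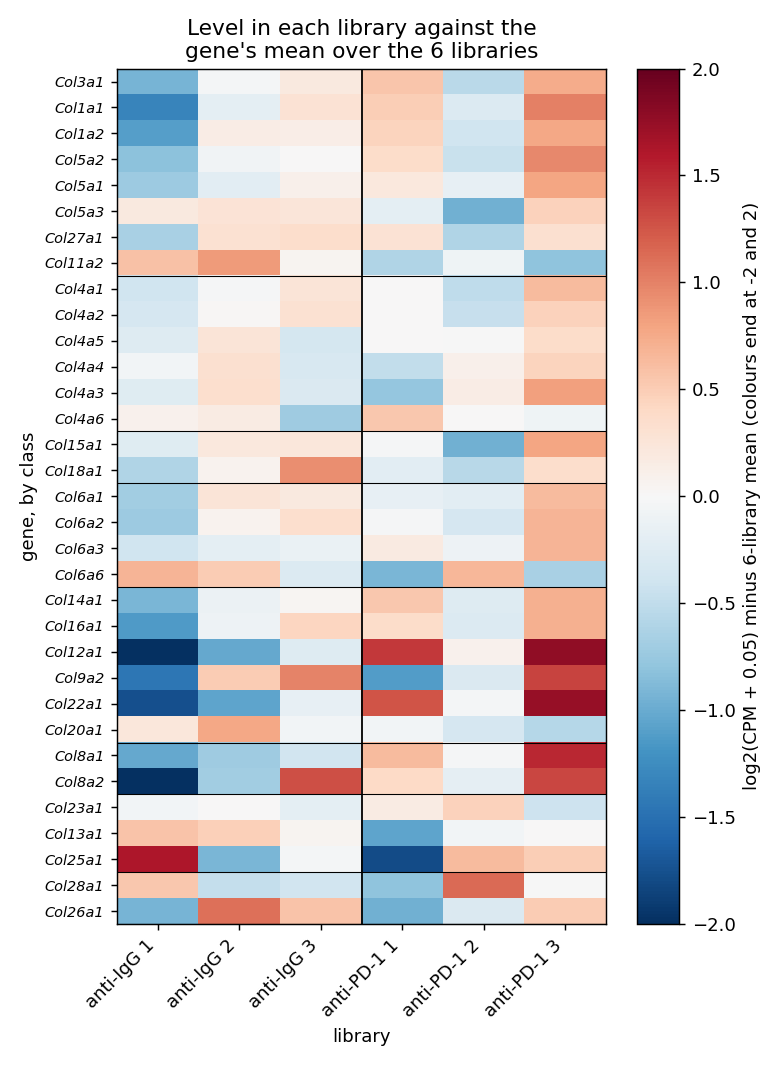
Level of each tested collagen gene (rows, by class) in each library (columns) as log2(CPM + 0.05) minus the gene's mean over the 6 libraries, in colour. Anti-IgG library 1 and anti-PD-1 library 2 are blue, and anti-PD-1 library 3 red, over most fibrillar, collagen VI and FACIT rows.

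The summed level of markers of activated fibroblasts and myofibroblasts stood in the same order of libraries, though not each marker did. The sum over all 12 listed markers (Postn, Cilp, Thbs4, Acta2 and others) was 531, 1622 and 1773 CPM in anti-IgG libraries 1, 2 and 3 and 1817, 986 and 2449 CPM in anti-PD-1 libraries 1, 2 and 3. None of the 12 was called by edgeR in either direction, with 2 at an unadjusted p under 0.05, 2 called by DESeq2 and 0 by limma-voom. Over all 14807 genes tested, 5457 had such a p, and DESeq2 called 3617 and limma-voom 2952. The sum over 11 general fibroblast markers ran from 1821 to 2053 CPM in the controls and from 1579 to 1772 CPM with anti-PD-1, with 1 of the 11 called lower (Clec3b) and none higher. The sum over 9 valve and cartilage markers was 19.6, 47.9 and 115 CPM in the controls and 88.9, 51.8 and 110 CPM with anti-PD-1, again lowest in anti-IgG library 1 among the controls and in anti-PD-1 library 2 among the others. Sums over 12 endothelial markers (2155 to 2440 CPM in the controls, 2276 to 2432 CPM with anti-PD-1) and 11 pericyte and smooth muscle markers (1992 to 2552 and 2484 to 2790 CPM) varied less. The sum over 10 cardiomyocyte markers, which define the labelled tissue, was 35416, 36675 and 43421 CPM in anti-IgG libraries 1, 2 and 3. It was 23090, 38893 and 26691 CPM in anti-PD-1 libraries 1, 2 and 3. Anti-PD-1 library 2, with the least collagen of its group, had the highest sum of its group. Among the controls the order went the other way, and anti-IgG library 1, with the least collagen, had the lowest sum. Sums over 10 macrophage markers were 383 to 730 CPM and 396 to 441 CPM. Sums over 8 adipocyte markers were 451 to 655 and 118 to 251 CPM, over 8 Schwann cell markers 24.6 to 29.1 and 15.4 to 19.5 CPM, and over 9 epicardial and mesothelial markers 13.0 to 15.3 and 9.37 to 14.7 CPM. By edgeR, 1 marker was called higher and 3 lower in each of the endothelial, pericyte and smooth muscle, cardiomyocyte and macrophage lists, and 1 lower in each of the Schwann cell and adipocyte lists, beside 10.3% higher and 10.8% lower over all genes. Ucp1, an adipocyte marker, was the only listed marker at 0 in all libraries. The part of any of these in the collagen levels was not tested.

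Chains that share a molecule can be compared per length, since FPKM divides by the authors' gene length. The ratio of Col1a1 to Col1a2 in FPKM was 1.28, 1.16 and 1.67 in anti-IgG libraries 1, 2 and 3 and 1.52, 1.63 and 1.74 in anti-PD-1 libraries 1, 2 and 3. Collagen I holds more of the chain from Col1a1 than of that from Col1a2, and the measured ratio of transcripts depended on the length used. The authors' length of Col1a2 was 12426 bp and that of its longest GENCODE transcript 5348 bp, and per GENCODE transcript length the same ratios ran from 0.555 to 0.828. The ratio of Col1a1 to Col3a1 was 0.548, 0.640 and 0.768 in the controls and 0.688, 0.869 and 0.857 with anti-PD-1, with overlap. The ratio of Col4a1 to Col4a2 varied little in the controls, at 1.32, 1.33 and 1.33 in the controls and 1.37, 1.33 and 1.54 with anti-PD-1. That of Col6a1 to Col6a2 was 2.06, 2.30 and 1.83 and then 1.83, 2.20 and 1.97. The groups overlapped in all 4 ratios, and no test was made.

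Promoters were read from the RefSeq table (GRCm38.p6), which held 38 promoters of 35 of the 44 collagen genes. The 250 bases before the RefSeq start site are shown for Col8a1, the most abundant collagen that rose, and for Col3a1 and Col1a2, abundant fibrillar chains that did not pass. Letters in capitals are matches, on either strand, to motifs searched by their letters. The motif of the TATA box was TATAAA. The motif of the CAAT box, which NF-Y binds, was CCAAT. The motif of the GC box, which SP1 binds, was GGGCGG. A SMAD-type element was searched as CAGACA. The CArG box is the element that SRF binds, and no motif shared letters of its match with another in these windows. The windows are chr16:57754738-57754987 (minus strand), chr1:45311288-45311537 (plus) and chr6:4505368-4505617 (plus). For Col1a2 the window lies inside the gene as counted, which starts at 4504814, because the RefSeq start site used here lies downstream of that start.
Col8a1: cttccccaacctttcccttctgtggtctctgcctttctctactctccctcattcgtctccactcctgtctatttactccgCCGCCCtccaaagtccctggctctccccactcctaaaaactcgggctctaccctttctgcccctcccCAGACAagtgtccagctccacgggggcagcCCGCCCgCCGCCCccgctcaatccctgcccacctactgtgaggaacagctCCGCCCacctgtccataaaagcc
Col3a1: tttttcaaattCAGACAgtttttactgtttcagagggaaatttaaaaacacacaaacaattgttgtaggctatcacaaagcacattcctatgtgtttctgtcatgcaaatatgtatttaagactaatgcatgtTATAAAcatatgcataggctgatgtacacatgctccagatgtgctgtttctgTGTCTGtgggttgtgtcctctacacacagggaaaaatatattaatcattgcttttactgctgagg
Col1a2: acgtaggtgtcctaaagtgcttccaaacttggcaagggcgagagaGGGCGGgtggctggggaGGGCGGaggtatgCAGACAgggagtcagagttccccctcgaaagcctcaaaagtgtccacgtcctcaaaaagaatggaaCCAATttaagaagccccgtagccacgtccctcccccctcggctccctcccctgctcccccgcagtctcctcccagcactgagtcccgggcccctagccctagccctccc
The Col8a1 window held 4 GC boxes and 1 SMAD-type element. That of Col3a1 held a TATA box and 2 SMAD-type elements, and that of Col1a2 held a CAAT box, 2 GC boxes and 1 SMAD-type element. The GC box was present in 22 of the 38 collagen promoters and in 32.7% of all 32851 promoters in the table. The TATA box was present in 5 of the 38 (12.4% of all), the CAAT box in 13 (33.9%), the SMAD-type element in 9 (17.1%) and the CArG box in 1, that of Col6a4 (1.47%). A match describes the letters only and is not a site of binding.

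Genes that make, bind and break down collagen were listed by role. Of 19 genes for modification and folding inside the cell, 2 rose, 0 fell and 17 did not pass, close to the 10.3% called higher over all genes, with a median of -0.06. These were P3h2, a prolyl 3-hydroxylase active on collagen IV (4.76, 4.48 and 6.71 CPM in anti-IgG libraries 1, 2 and 3; 12.2, 8.41 and 17.1 CPM in anti-PD-1 libraries 1, 2 and 3; log2 fold change 1.24 ± 0.29, adjusted p 0.0170 by edgeR), and Colgalt1, a collagen galactosyltransferase (0.68 ± 0.20, adjusted p 0.0330 by edgeR). Of 19 tested genes for processing of procollagen and assembly of fibrils, 1 rose and 0 fell, against 10.3% and 10.8% over all genes, with a median of 0.46. This was Loxl4, a lysyl oxidase that crosslinks collagen, at 0.56, 0.95 and 0.85 CPM in the controls and 2.74, 3.00 and 4.71 CPM with anti-PD-1 (2.14 ± 0.41, adjusted p 0.00880 by edgeR). Loxl4 kept its call in each alternative in which it was tested, the fits with a length trend removed and those with 1 library left out included. Tll1, a procollagen C-proteinase, had 1.43 ± 0.52 and did not pass (adjusted p 0.0717 by edgeR).

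None of 10 tested collagen receptors was called by edgeR, with 3 at an unadjusted p under 0.05, 1 called by DESeq2 and 0 by limma-voom. Over all 14807 genes tested, 5457 had such a p, and DESeq2 called 3617 and limma-voom 2952. Itgb1, the shared beta chain of the collagen-binding integrins, had 0.56 ± 0.20 and Ddr2, a receptor tyrosine kinase for fibrillar collagen, 0.48 ± 0.18. Itga10, also with an unadjusted p under 0.05 by edgeR, went down, at -1.15 ± 0.48 (adjusted p 0.105 by edgeR). Of the 10 receptors, 9 had a value above 0 and 1 below. The median over the receptors was 0.31. Of 14 tested genes of collagen breakdown, 1 rose and 1 fell, near the 10.3% and 10.8% over all genes. Timp3, a matrix-bound inhibitor of metalloproteinases, stood at 121, 55.5 and 83.4 CPM in anti-IgG libraries 1, 2 and 3 and at 181, 370 and 191 CPM in anti-PD-1 libraries 1, 2 and 3 (log2 fold change 1.51 ± 0.35, adjusted p 0.0173 by edgeR). Timp3 was highest in anti-PD-1 library 2, as 5 of the 33 tested collagens were. Mmp13, a collagenase, stood at 1.23, 0.84 and 1.80 CPM and at 0.25, 0.32 and 0.29 CPM (-2.15 ± 0.53, adjusted p 0.0196 by edgeR).

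Of 22 regulators of collagen transcription and TGF-beta signalling, 6 rose, 0 fell and 16 did not pass, against 10.3% of all genes called higher, and the median was 0.37. Smad4, the common partner of the SMADs, stood at 56.4, 39.2 and 44.6 CPM in the controls and at 101, 87.9 and 87.7 CPM with anti-PD-1 (log2 fold change 0.98 ± 0.19, adjusted p 0.00865 by edgeR). Skil (SnoN, a repressor of SMADs) had 1.09 ± 0.22, Srf, which binds the CArG box, 0.81 ± 0.19, Mkl2, a cofactor of Srf, 0.76 ± 0.17, the ligand Tgfb2 0.83 ± 0.25 and its receptor Tgfbr1 0.59 ± 0.18 (SE). The members that rose thus included both an activator and a repressor of SMAD transcription. With the trend on coding and 3′ UTR length removed, Skil, Mkl2, Tgfb2 and Tgfbr1 no longer passed, and Colgalt1 above did not either (adjusted p by edgeR 0.0879, 0.863, 0.159, 0.533 and 0.0849). Without anti-IgG library 2, 216 of all genes were called higher in place of 1525. In that fit all of P3h2, Colgalt1, Timp3, Mmp13 and the 6 regulators missed the threshold, and over the 5 lists of related genes 1 was called higher in place of 10. That count was 6 without anti-IgG library 3 (Timp3, Colgalt1, Tgfb2 and Tgfbr1 missed the threshold). It was 6 without anti-PD-1 library 1 (Srf, Colgalt1, Tgfb2 and Tgfbr1 missed it). Without anti-PD-1 library 3 it was again 6 (P3h2, Colgalt1, Tgfb2 and Tgfbr1 missed the threshold). Mmp13, which was called lower and is not part of that count, also missed the threshold in each of these fits. Tgfb2 and Tgfbr1 also missed it with upper quartile scaling (adjusted p by edgeR 0.0581 and 0.0684).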

How the data were processed

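Enriched mRNA of 6 left ventricle samples was made into cDNA with a NEBNext Ultra kit, per the labels' protocols. The authors deposited raw read counts per gene; featureCounts and mm10 are named in the submitters' processing notes, neither the aligner nor a strand setting is given in the sources used here. The deposited FPKM values rest on the authors' gene length. Counts were tested with edgeR 4.0.16 (R 4.3.3; TMM, filterByExpr, robust quasi-likelihood fit, group as the only term, Benjamini-Hochberg adjustment over all genes). Levels are TMM-scaled CPM, and log2 FPKM was used in limma 3.58.1 alternatives. DESeq2 1.42.0, limma-voom, other scalings and filters, splines with 5 degrees of freedom on length and GC, and leaving out each library were tried. Gene positions of all 44 collagens were the same in GENCODE M21, which gave transcript lengths for 13083 of 14807 tested genes and for 33 of 33 collagens. The edgeR script was tested on simulated counts. The members and lists were chosen with earlier results of these data known. Values in every library are given for collagens past the threshold, the 2 with the highest mean FPKM in each class and both chains of each ratio; in the related lists, genes past the threshold and the 2 with the smallest unadjusted p were named. Other genes named were chosen after their values were seen.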

Additional observations from a re-analysis of the deposited data

How the results depend on the processing

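Depth was similar in all libraries (18063344 to 21093163 reads), and precision rests on 3 libraries a group. In place of 3, the count of collagens called higher was 6 with no count filter (Col12a1 lost, Col14a1, Col1a1, Col5a1 and Col5a2 gained), 0 in each of the 3 fits with a length trend removed, and 0 to 6 with 1 library left out; it was 3 with RLE or upper quartile scaling, a 1 CPM filter, DESeq2, limma-voom, a fit without robust moderation and without mitochondrial and haemoglobin genes, and 2 with log2 FPKM (Col22a1 lost). The cause was not tested. Over all genes, 1525 higher and 1593 lower became 766 and 760 (gene length), 433 and 400 (coding and 3′ UTR length), 505 and 477 (with GC), and 216 to 1805 and 316 to 1841 with 1 library left out. Upper quartile scaling gave 1178 higher and 2022 lower, 36.8% higher against 48.9%, and moved the median of all genes from -0.03 to -0.12. In the related lists, 10 higher became 6 with coding and 3′ UTR length, with or without GC, and 1 to 14 with 1 library left out, and 1 lower became 2 with upper quartile scaling, 4 with no count filter, 0 with the FPKM filter and 0 to 5 with 1 library left out.

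Log2 fold changes of collagens that were not called changed sign. With the trend on gene length, on coding and 3′ UTR length, and on these and GC removed, in this order, they were -0.11, -0.34 and -0.21 for Col4a1, -0.16, -0.35 and -0.22 for Col4a2, -0.10, -0.17 and -0.0393 for Col6a2, and -0.15, -0.25 and -0.16 for Col15a1. For Col23a1 they were -0.21 and -0.0915 in the last 2 fits, for Col4a5 -0.19 and -0.18, and for Col4a6 -0.16 and -0.11. Col4a3 was at -0.0974, -0.49 and -0.46, Col4a4 at -0.31, -0.78 and -0.72, and Col5a1 at -0.17 with coding and 3′ UTR length. Col27a1 and Col9a2, both near 0, also changed sign between scalings or tools, and Col25a1 with 1 library left out. Upper quartile scaling gave -0.0535 for Col4a2, -0.0383 for Col4a4 and -0.0626 for Col15a1. Col15a1 was -0.14 with limma-voom, -0.10 with log2(FPKM + 1) with or without the FPKM filter, and -0.11 with log2(FPKM + 0.1). With 1 library left out, ranges were -0.19 to 0.40 for Col4a1, -0.22 to 0.25 for Col4a2, -0.16 to 0.33 for Col6a1, -0.13 to 0.45 for Col6a2, -0.49 to 0.38 for Col15a1, -0.66 to 0.14 for Col18a1 and -0.31 to 0.76 for Col28a1. In the same fits they were -0.19 to 0.58 for Col4a3, -0.17 to 0.28 for Col4a4, -0.27 to 0.25 for Col27a1 and -1.03 to 0.57 for Col9a2.

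Chain ratios and shares moved with their unit. In the anti-IgG and anti-PD-1 groups, ratios of raw counts had means of 0.724 and 0.861 (Col1a1 to Col1a2), 1.5 and 1.59 (Col4a1 to Col4a2), 1.09 and 1.05 (Col6a1 to Col6a2) and 0.436 and 0.538 (Col1a1 to Col3a1), against 1.37 and 1.63, 1.33 and 1.41, 2.06 and 2.00, and 0.652 and 0.805 in FPKM. Per GENCODE transcript length, an alternative added after seeing the data, they were 0.653 and 0.777, 1.46 and 1.56, 1.23 and 1.19, and 0.409 and 0.505. Without mitochondrial and haemoglobin genes in the total, collagens took 0.620% and 0.782% of reads.

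Whether the replicate numbers pair the samples cannot be settled from 3 libraries a group. Deviations of same-numbered libraries correlated at 0.12, -0.14 and 0.21 across genes, and those of differently numbered libraries at -0.34 to 0.20. With a replicate block, 3 collagens were called higher and 0 lower, 1623 and 1744 of all genes, 2 of the related genes lower, and Col15a1 stood at -0.12. The adjusted p by edgeR was then 0.0047 for Col8a1, 0.0129 for Col12a1 and 0.0105 for Col22a1.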
